A study of Rattus norvegicus with 30 samples.

Results

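Histones are the proteins that package DNA, and their genes were followed here in rat liver after resections of different size. Members were the probe sets of an Affymetrix Rat Gene 2.0 ST array that are annotated with exactly 1 gene symbol and whose symbol is that of an H1, H2A, H2B, H3 or H4 histone, H2ax left out. This gave 36 probe sets, each for a different gene, of the 29489 on the array, of which 18511 carry exactly 1 symbol. By symbol, 23 belong to replication-dependent cluster genes (H1 2, H2A 6, H2B 11, H3 2 and H4 2) and 5 to replacement variants (H3f3b, H3f3c, H2az1, H2aj and H1f10). Of the other 8, 4 are germline histones (H1f6, H2ac1, H2bc1, H3f4), 2 are further linker histones (H1f7, H1f8), and 2 are copies with variant-like names (H2az2l1, H3f3l1) that are kept apart from both classes.

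RNA came from the livers of 30 Wistar rats of wildtype genotype, 6 in each of 5 groups, with 1 array per rat and a small piece of bulk liver per array. Livers were taken 24 hours after removal of 30% (PH30), 70% (PH70) or 90% (PH90) of the organ or after a sham operation, and the other group had no operation (unoperated). The labels give neither age nor sex. The title of the series asks how the size of the resection changes expression in the remnant. Values are log2 and were deposited with the median of each probe set over the 30 arrays set to 0, so a value of 1 is 2-fold above that probe set's median rat. Levels cannot be compared between genes, and the tissue label cannot be checked against the level of liver markers.

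A nucleosome holds DNA on an octamer of H2A, H2B, H3 and H4, and linker H1 binds where DNA enters and leaves it. Replication-dependent histone genes lie in clusters, are transcribed mainly in S phase, and make messages that end in a stem-loop bound by Slbp in place of a poly(A) tail. Replacement variants are made outside S phase too, from polyadenylated messages, and are put into chromatin without DNA replication. After partial hepatectomy the cells of the remnant, hepatocytes first, leave quiescence and replicate their DNA. The labelling kit is a whole-transcript kit, which does not depend on a poly(A) tail.

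The promoters of the members show what the classes share in sequence, which the choice of members did not use. RefSeq sequence of the 250 bases before the annotated start (build GRCr8) matched 33 of the 36 members (H3f3c, H4c14 and Hist2h2bb were not matched). The pentamer CCAAT, searched on both strands (ATTGG on the other), occurred in 20 of 21 cluster promoters, or 95.2%, against 34.0% of the 33469 promoters of that length in the table. Counted as 2 or more copies, it occurred in 19 of 21 cluster promoters (90.5%) against 9.42% of all. TATAAA on either strand was present in 12 of 21 (57.1%, against 12.9% of all) and the octamer ATTTGCAT on either strand in 9 of 21 (42.9%, against 1.56% of all). Cluster genes that face each other overlap in these windows, so the 21 promoters are not independent, and a match of letters is not evidence of binding.

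The sequences below show the motifs in genes described further on, 4 cluster genes and 2 replacement variants; no expression result rests on them. Capitals mark the 3 motifs named above, on either strand. H2bc8, one of the most responsive cluster genes, is at chr17:47404155-47404404 (plus strand). H2ac12, at chr17:47181943-47182192 (plus strand), shares 248 of its 250 bases with the window of H2bc12 on the other strand. H2ac25, at chr10:44233033-44233282 (plus strand), shares 217 bases with H2bu1. Hist1h4b, at chr17:47175996-47176245 (plus strand), is the matched cluster gene without any of the 3 motifs. In the data its probe set, whose target is uncertain, moved against its class after the largest resection. Hist1h2bq also moved against its class, and its window has 3 CCAAT and 1 ATTTGCAT. A link between motifs and direction was not tested. The replacement variants are H2az1, at chr2:229028845-229029094 (plus strand), and H3f3b, at chr10:101757637-101757886 (minus strand).
H2bc8: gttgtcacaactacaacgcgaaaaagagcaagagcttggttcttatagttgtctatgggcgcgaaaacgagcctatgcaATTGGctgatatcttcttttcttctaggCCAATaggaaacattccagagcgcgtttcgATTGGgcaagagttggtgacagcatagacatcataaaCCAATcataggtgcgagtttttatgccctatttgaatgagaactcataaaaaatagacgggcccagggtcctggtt
H2ac12: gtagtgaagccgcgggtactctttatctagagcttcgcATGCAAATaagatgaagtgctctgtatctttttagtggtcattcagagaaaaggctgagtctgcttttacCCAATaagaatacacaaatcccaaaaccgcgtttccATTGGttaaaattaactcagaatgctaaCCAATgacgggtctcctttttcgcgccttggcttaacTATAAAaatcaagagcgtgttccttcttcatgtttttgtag
H2ac25: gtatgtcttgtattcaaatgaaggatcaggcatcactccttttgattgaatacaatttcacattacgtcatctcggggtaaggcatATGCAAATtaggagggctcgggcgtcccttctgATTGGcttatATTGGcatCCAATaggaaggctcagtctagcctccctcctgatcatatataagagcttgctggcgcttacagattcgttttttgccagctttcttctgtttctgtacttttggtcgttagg
Hist1h4b: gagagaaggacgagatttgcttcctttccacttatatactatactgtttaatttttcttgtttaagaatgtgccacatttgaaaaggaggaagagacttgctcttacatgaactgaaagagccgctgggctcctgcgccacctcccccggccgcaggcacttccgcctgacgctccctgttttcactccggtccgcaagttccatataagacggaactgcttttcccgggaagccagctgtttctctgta
H2az1: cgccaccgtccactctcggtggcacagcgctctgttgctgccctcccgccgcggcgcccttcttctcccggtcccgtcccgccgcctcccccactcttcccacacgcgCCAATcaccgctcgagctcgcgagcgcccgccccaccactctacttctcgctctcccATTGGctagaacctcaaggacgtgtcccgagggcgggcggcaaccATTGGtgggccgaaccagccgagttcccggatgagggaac
H3f3b: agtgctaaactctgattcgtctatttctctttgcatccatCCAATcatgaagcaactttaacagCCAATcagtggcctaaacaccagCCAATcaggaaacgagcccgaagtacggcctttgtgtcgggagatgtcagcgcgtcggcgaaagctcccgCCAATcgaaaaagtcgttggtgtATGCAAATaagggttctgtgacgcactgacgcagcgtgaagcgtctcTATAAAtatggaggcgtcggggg

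In these windows H2bc8 has 4 copies of CCAAT and neither of the other motifs. H2ac12 has 3 CCAAT, 1 TATAAA and 1 ATTTGCAT. These motifs were not limited to cluster genes: H3f3b, a replacement gene, has 4 CCAAT, 1 TATAAA and 1 ATTTGCAT, and H2az1 has 3 CCAAT. Of the 4 replacement promoters matched, 3 hold CCAAT, 1 TATAAA and 1 ATTTGCAT.

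Cluster histone messages were higher after 30% and higher still after 70% resection, and near sham after 90%. The mean of the 23 cluster probe sets in a rat lay between -0.28 and -0.13 (median -0.22) in unoperated rats and between -0.28 and -0.16 (median -0.19) in sham rats. It lay between 0.01 and 1.06 (median 0.38) after PH30, between 0.22 and 1.30 (median 1.11) after PH70, and between -0.49 and 0.34 (median -0.06) after PH90. All 6 PH30 and all 6 PH70 rats were above every sham rat, whereas of the PH90 rats 4 were above and 2 below every sham rat. This mean includes Hist1h4b and Hist1h2bq, which were low after PH90 and whose targets are uncertain, as described below. The count of PH90 rats below sham depends in part on them. Of the 23 cluster differences between PH90 and sham, 16 were positive and 7 negative. The 5 replacement variants moved over a smaller range: their mean had a median of -0.12 in sham, -0.02 in PH30, 0.32 in PH70 and 0.07 in PH90 rats, with 5 of 6 PH70 rats above every sham rat and 2 of 6 PH90 rats. In bulk liver, a change in the share of cells that make a message and a change in the amount made per cell cannot be told apart.

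**Figure D1:**
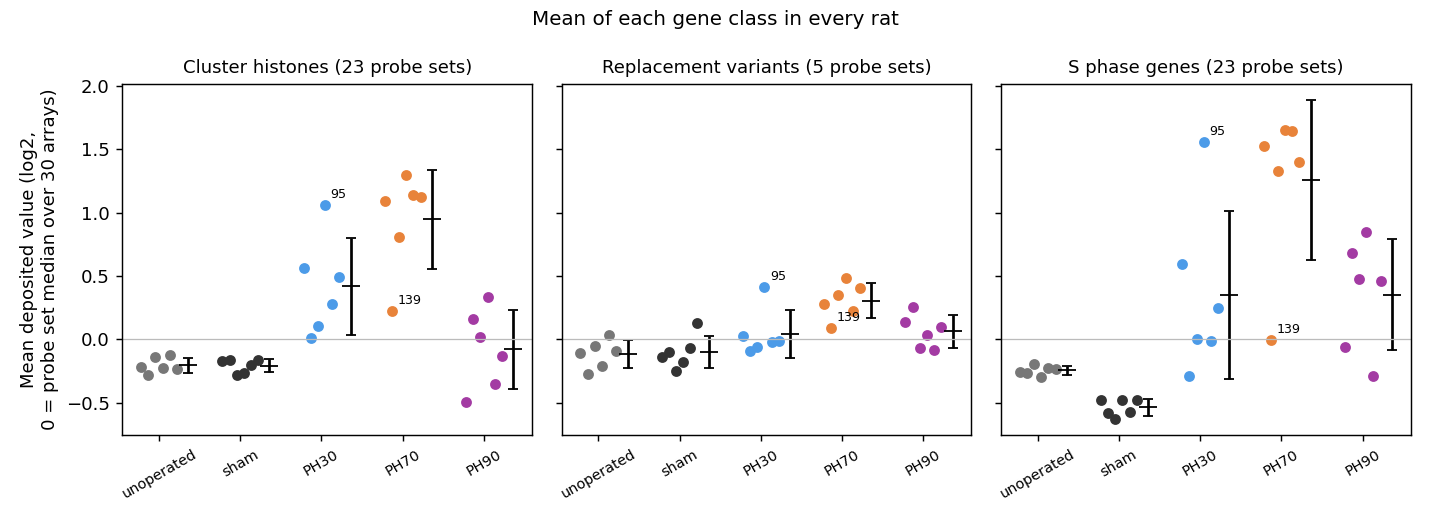
Mean deposited log2 value of each gene class (vertical axis, 0 being each probe set's median over 30 arrays) in every rat, by group; black marks show the group mean and SD (n = 6). Cluster histones reach medians of 0.38 in PH30 and 1.11 in PH70 and -0.06 in PH90, where the S phase median is 0.47 against -0.53 in sham and -0.24 in unoperated rats. PH30 rat 95 and PH70 rat 139, which lie away from their groups, are labelled.

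Each probe set was tested with limma over all 30 arrays, with p-values adjusted over all 18511 single-symbol probe sets and called at an adjusted p below 0.05. In the F test for any difference between the 5 groups, 26 of the 36 members were called: 19 of 23 cluster genes, 4 of 5 replacement variants, 1 of 4 germline histones, both variant-like copies and 0 of 2 further linker histones. Over all probe sets tested, 42.7% were called. The highest of the 5 group means was that of PH70 for 18 of the 23 cluster genes, of PH30 for 3, of PH90 for 1 and of sham for 1. Among replacement variants it was PH70 for 3 and PH90 for 2.

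The sham operation by itself left no called change in these genes. Against unoperated rats, limma called 0 of 23 cluster genes and 0 of 5 replacement variants (0.74% of all probe sets tested), the median cluster difference was -0.03, and 1 cluster gene and 1 replacement variant had an unadjusted p below 0.05. A limma fit on those 12 arrays alone called 3 cluster genes, 1 higher and 2 lower. The numbers of the unoperated rats run above those of all others. The labels do not say what the numbers stand for. Anything tied to them and the lack of an operation cannot be told apart.

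After PH30, 10 of 23 cluster genes rose and 0 fell against sham, where 5.72% of all probe sets were called, 2.34% as higher and 3.37% as lower. The median cluster difference was 0.45, against 0.01 over all probe sets tested. No replacement variant was called (0 of 5, median 0.07; 1 had an unadjusted p below 0.05). Part of the PH30 rise came from rat 95, whose cluster mean of 1.06 was next to those of PH70 rats, the other 5 PH30 rats lying between 0.01 and 0.56. Without that rat 7 of 23 rose, with a median of 0.36, and without PH70 rat 139, which changes only the shared spread, 12 rose and 1 fell.

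After PH70, 17 of 23 cluster genes rose and 1 fell against sham, where 18.8% of all probe sets were called, 10.7% as higher and 8.15% as lower. The median cluster difference was 1.23 against -0.01 over all probe sets, and single differences ran from -0.92 to 2.78. All 4 core families and H1 took part: 2 of 2 H1, 6 of 6 H2A, 6 of 11 H2B, 2 of 2 H3 and 1 of 2 H4 genes rose. H2B was the most divided family, with 1 gene lower and 4 not called. The PH30, PH70 and PH90 comparisons share the sham rats, so their counts are not independent of each other. Against unoperated rats, 17 of 23 rose after PH70 and 0 fell (18.5% of all called, 9.45% as higher and 9.08% as lower). After PH30, 10 of 23 rose against unoperated rats and 0 fell (9.89% of all called, 3.57% as higher and 6.32% as lower).

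The direct comparison of PH70 with PH30 depended on 2 rats. The PH70 mean was the higher in 20 of 23 cluster genes, but only 3 were called higher (2.45% of all probe sets called; median difference 0.72), and 15 had an unadjusted p below 0.05. Without PH30 rat 95, 14 were called higher. Without PH70 rat 139, whose cluster mean of 0.22 lay below the 0.81 to 1.30 of the other 5 PH70 rats, 14 were called higher and 1 lower. Without both, 15 were higher and 2 lower, and with array weights 15 were higher. When only these 12 arrays were fitted, 0 were called. The share of all probe sets called in these other fits is not given here. The count rose in a list of S phase genes too, from 6 of 23 probe sets to 22 without rat 95 and 23 without rat 139. The gain in calls was thus not particular to histones. Of the replacement variants 0 were called in all arrays, and between 1 and 2 without either or both rats.

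After PH90, 3 of 23 cluster genes were higher than sham and 2 were lower, with a median of 0.20, while 34.7% of all probe sets were called, 20.1% as higher and 14.6% as lower. The 3 were H2ac21, Hist2h2bb and Hist1h2bo, and the 2 were Hist1h4b and Hist1h2bq. Hist1h2bo was not called in the F test over the 5 groups (adjusted p = 0.065). Against unoperated rats 1, an H2A gene, was higher and 2 were lower after PH90, where 33.8% of all probe sets were called. The H2B genes Hist2h2bb and Hist1h2bo were thus not called higher against unoperated rats. Set directly against PH70, 17 of 23 cluster genes were lower and 0 higher (24.5% of all called, 10.3% as lower), with a median of -1.21 against 0.01 over all probe sets. By family these were 2 of 2 H1, 6 of 6 H2A, 5 of 11 H2B, 2 of 2 H3 and 2 of 2 H4 genes. This comparison and PH70 against sham share the PH70 rats, whose high values enter both. Against PH30, 7 cluster genes were lower in PH90 and 0 higher (31.5% of all called, 13.0% as lower). That last count fell to 4 lower and 1 higher without PH30 rat 95.

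**Figure D2:**
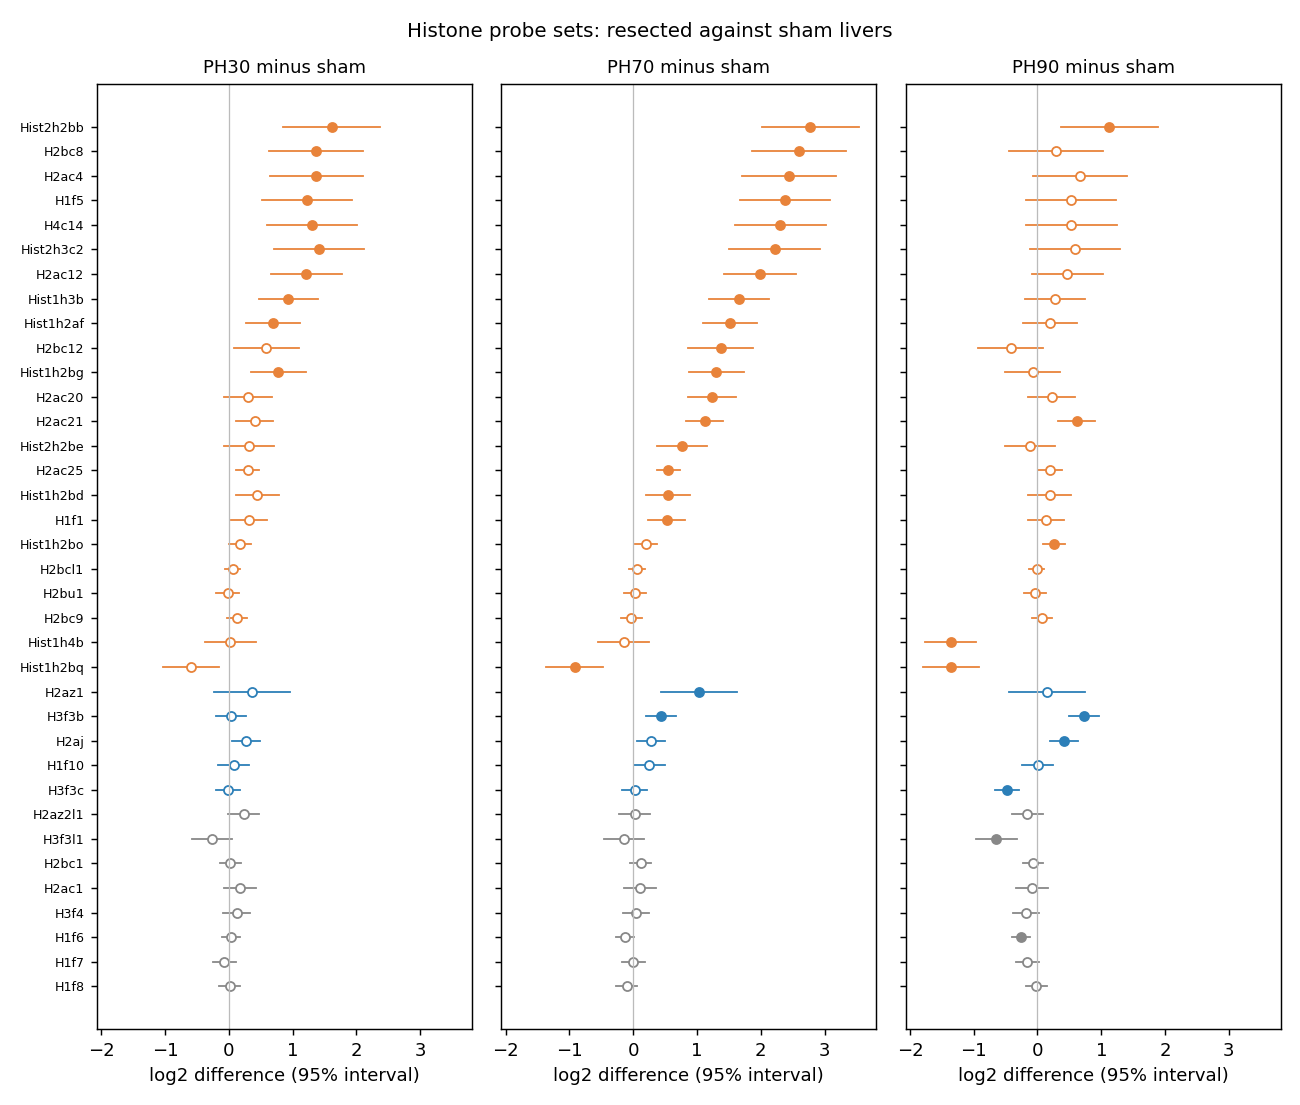
Log2 difference from sham (horizontal axis) of all 36 histone probe sets after PH30, PH70 and PH90, with 95% intervals from limma; filled points are called and orange, blue and grey stand for cluster genes, replacement variants and other histones. Among cluster genes 10, 17 and 3 filled points lie above 0 in the 3 panels, and the largest PH70 difference is 2.78.

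H2bc8, an H2B gene of the chromosome 17 cluster, had among the largest responses. Its values ran from -0.75 to 0.01 (median -0.20) in sham and from -0.55 to -0.01 (median -0.40) in unoperated rats. They ran from 0.16 to 2.70 (median 0.86) after PH30, from 0.75 to 3.09 (median 2.52) after PH70 and from -0.74 to 0.75 (median -0.07) after PH90. Every PH30 and PH70 rat was above every sham rat, and the PH90 rats overlapped sham. The log2 difference from sham was 1.37 (SE 0.36, adjusted p = 0.023) after PH30 and 2.59 (SE 0.36, adjusted p = 9.3e-06), or 6.04-fold, after PH70. After PH90 it was 0.30, with a 95% interval from -0.44 to 1.03 (adjusted p = 0.6), and PH90 differed from PH70 by -2.30 (adjusted p = 1.3e-05).

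Hist1h3b, which encodes a cluster H3, showed the same order with less spread. It ran from -0.70 to -0.24 (median -0.37) in sham, from 0.01 to 1.58 (median 0.39) in PH30, from 0.40 to 1.93 (median 1.24) in PH70 and from -0.76 to 0.34 (median 0.02) in PH90 rats. No PH90 rat reached the lowest PH70 rat. The difference from sham was 0.93 (SE 0.23, adjusted p = 0.015) after PH30 and 1.66 (SE 0.23, adjusted p = 8.4e-06), or 3.15-fold, after PH70. It was 0.27 after PH90 (95% interval -0.19 to 0.74, adjusted p = 0.41), and -1.38 between PH90 and PH70 (adjusted p = 2.6e-05).

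All 6 H2A genes rose after PH70. H2ac12 was between -0.52 and -0.13 (median -0.42) in sham, between 0.44 and 1.76 (median 0.65) in PH30, between -0.01 and 2.50 (median 1.90) in PH70 and between -0.27 and 0.66 (median 0.10) in PH90 rats. Its differences from sham were 1.22 (adjusted p = 0.0091), 1.99 (adjusted p = 8.4e-06) and 0.47 (adjusted p = 0.21) after PH30, PH70 and PH90. All 6 PH90 rats stood above the sham mean, and the PH90 difference was called without rats 95 and 139 (adjusted p = 0.025) and with the 12 arrays alone (adjusted p = 0.021). Hist1h2af differed from sham by 0.69 (adjusted p = 0.044), 1.51 (adjusted p = 7.6e-06) and 0.19 (adjusted p = 0.54). Its PH30 call was lost without rat 95, where the difference was 0.54 (adjusted p = 0.088).

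H2ac21 was above sham after PH90 as well as after PH70. Its values were between -0.52 and -0.21 (median -0.41) in sham, between -0.29 and 0.64 (median -0.07) in PH30, between 0.06 and 1.01 (median 0.88) in PH70 and between 0.04 and 0.36 (median 0.23) in PH90 rats. PH70 and PH90 rats were all above every sham rat. The difference from sham was 1.12 (SE 0.14, adjusted p = 4.4e-06) in PH70 and 0.62 (SE 0.14, adjusted p = 0.00081) in PH90, and PH90 was below PH70 by a log2 difference of -0.51 (adjusted p = 0.0074). The PH30 difference of 0.41 missed the threshold (adjusted p = 0.085) and passed it without PH70 rat 139 (adjusted p = 0.031). The other cluster gene called higher in both was Hist2h2bb, an H2B gene chosen here after its values were seen, with the largest PH70 difference of all members. It differed from sham by 1.61, 2.78 and 1.13 after PH30, PH70 and PH90 (adjusted p = 0.011, 6.7e-06 and 0.018), and its PH70 rats ran from -0.05 to 2.96.

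Among the H2B genes, H2bc12 and Hist1h2bg rose after PH70 and were not called against sham after PH90. H2bc12 ran from -0.14 to 0.18 (median 0.00) in sham, from 0.37 to 2.04 (median 1.59) in PH70 and from -1.17 to 0.51 (median -0.34) in PH90 rats. It differed from sham by 0.59 (adjusted p = 0.17), 1.37 (adjusted p = 0.00017) and -0.42 (adjusted p = 0.21), and PH90 differed from PH70 by -1.80 (SE 0.25, adjusted p = 2e-06). Hist1h2bg ran from -0.43 to 0.01 (median -0.18) in sham, from 0.27 to 1.5 (median 1.33) in PH70 and from -0.91 to 0.66 (median -0.27) in PH90 rats. Its differences from sham were 0.77 (adjusted p = 0.028), 1.30 (adjusted p = 5.1e-05) and -0.07 (adjusted p = 0.84). Without rat 95 its PH30 difference was 0.67, at an adjusted p of 0.05, and no longer called.

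Hist1h4b and Hist1h2bq went against their class. Hist1h4b, annotated as an H4 gene, was between 0.03 and 0.42 (median 0.27) in sham, between -0.46 and 0.71 (median 0.34) in PH30, between -0.25 and 0.93 (median -0.08) in PH70 and between -1.60 and -0.64 (median -0.97) in PH90 rats. Every PH90 rat was below every rat of the other resected and sham groups. PH90 was lower than sham by a log2 difference of -1.36 (SE 0.19, adjusted p = 1.2e-06), or 2.57-fold, and differed from PH70 by -1.21 (adjusted p = 1.7e-05). In PH30 and PH70 the differences from sham were 0.02 and -0.15 (adjusted p = 0.97 and 0.69). Hist1h2bq, an H2B gene, was between 0.20 and 0.93 (median 0.73) in sham, between -0.43 and 0.34 (median 0.08) in PH30, between -0.84 and 0.90 (median -0.53) in PH70 and between -0.93 and -0.37 (median -0.79) in PH90 rats. It fell after PH70 (log2 difference -0.92, adjusted p = 0.0023) and PH90 (-1.36, adjusted p = 6.1e-06). In PH30 it differed by -0.60 (adjusted p = 0.096), which was called without PH70 rat 139 (adjusted p = 0.021). Against unoperated rats the PH70 difference of Hist1h2bq was -0.59 and was not called.

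Both genes belong to families of near-identical copies, so the target of their probe sets is uncertain. The 19 histone probe sets annotated with several symbols were left out of the members and read from a fit on all probe sets. Of the 15 of them that list cluster genes, 8 rose after PH30, 13 after PH70 and 1 after PH90 against sham, 0 fell, and the median differences were 0.99, 1.74 and 0.43. Against PH70, 11 of 15 were lower in PH90 (median -1.35). Over the single-symbol probe sets of the main fit, 2.34%, 10.7% and 20.1% were called higher than sham after PH30, PH70 and PH90. Between PH90 and PH70, 10.3% of them were called lower. The 3 sets that list Hist1h4b beside other H4 genes rose after PH70, by 1.97, 1.60 and 1.92, and differed from sham by 0.15, 0.25 and 0.47 after PH90 (adjusted p = 0.8, 0.53 and 0.29). The set that lists Hist1h2bq beside other genes rose by 1.86 after PH70. The probe sets carrying those symbols alone thus gave other directions than the sets shared with their copies.

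The cluster genes with the smallest F values were H2bc9, H2bcl1 and H2bu1, all H2B genes, and none of the 3 was called in a comparison with sham. After PH70 they differed from sham by -0.03 (95% interval -0.19 to 0.13), 0.06 (-0.06 to 0.18) and 0.03 (-0.14 to 0.21). All their values lay between -0.33 and 0.30. Because levels were lost in centring, a gene without a measurable message and one with a constant message cannot be told apart here.

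Histone genes often lie head to head, and 4 such pairs were found among the members by their RefSeq starts. H2bc12 and H2ac12 start 252 bases apart on chromosome 17, and both rose after PH70 (1.37 and 1.99), while after PH90 their differences from sham were -0.42 and 0.47, neither of them called. H2ac20 and Hist2h2be, 225 bases apart on chromosome 2, rose by 1.23 (adjusted p = 2.1e-05) and 0.76 (adjusted p = 0.0044) after PH70. H2bu1 and H2ac25, 217 bases apart on chromosome 10, parted: H2ac25 rose by 0.55 after PH70 (adjusted p = 5.7e-05), with all 6 rats above every sham rat, and H2bu1 differed by 0.03 (adjusted p = 0.87). The germline pair H2ac1 and H2bc1, 239 bases apart on chromosome 17, differed from sham by 0.11 and 0.12, with neither called, although each window has 4 CCAAT and 2 TATAAA. The pairs were looked up by position, and H2ac20, Hist2h2be, H2ac25, H2ac1 and H2bc1 are named here after their values were seen.

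**Figure D3:**
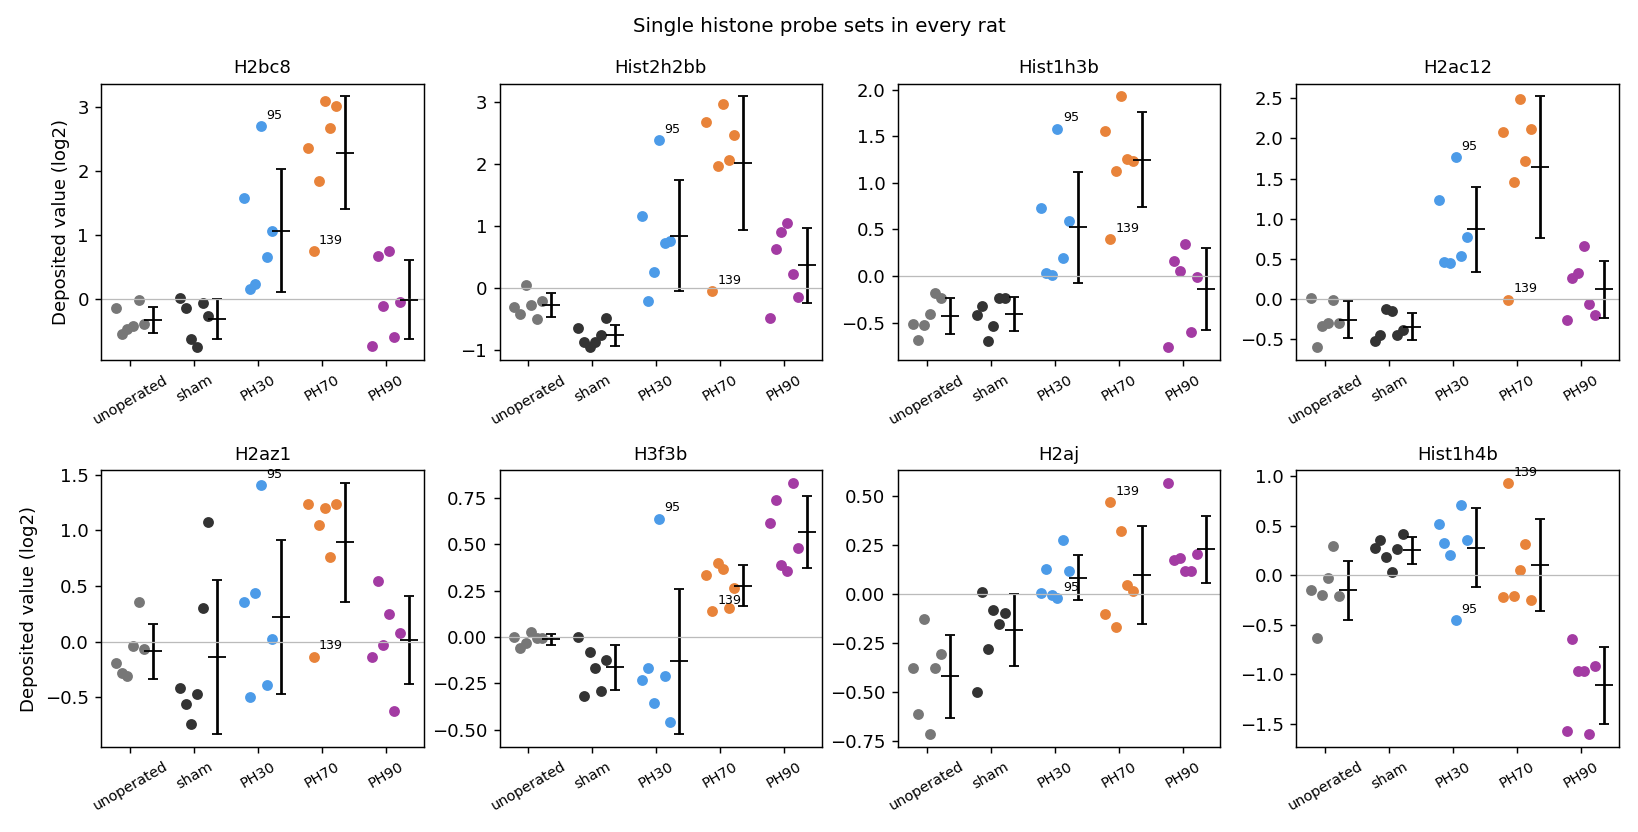
Deposited log2 values of 8 histone probe sets in every rat, by group; black marks show the group mean and SD (n = 6), and each panel has its own vertical scale. The top row holds cluster genes that peak in PH70; in the bottom row H2az1 peaks in PH70, H3f3b and H2aj are highest in PH90, and Hist1h4b is lowest in PH90, between -1.60 and -0.64. PH30 rat 95 and PH70 rat 139 are labelled.

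The replacement variants did not share a pattern. Against sham 2 of 5 rose after PH70 and 0 fell (median 0.28), where 18.8% of all probe sets were called. After PH90 2 rose and 1 fell (median 0.15), where 34.7% were called. Between PH90 and PH70, 2 were lower and 0 higher, where 24.5% were called. With 5 genes these counts are not set apart from those shares. H2az1, the variant H2A found at promoters, followed the cluster genes: it ran from -0.74 to 1.08 (median -0.45) in sham, from -0.50 to 1.41 (median 0.19) in PH30, from -0.14 to 1.24 (median 1.13) in PH70 and from -0.62 to 0.55 (median 0.02) in PH90 rats. A sham rat at 1.08 and PH70 rat 139 at -0.14 made the groups overlap. The difference from sham was 0.36 (adjusted p = 0.55), 1.03 (SE 0.29, adjusted p = 0.012), or 2.04-fold, and 0.15 (95% interval -0.45 to 0.75, adjusted p = 0.76), and PH90 differed from PH70 by -0.88 (adjusted p = 0.026).

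H3f3b, which encodes the replication-independent H3, was highest after the largest resection. It ran from -0.06 to 0.03 (median -0.01) in unoperated, from -0.32 to -0.00 (median -0.15) in sham, from -0.46 to 0.64 (median -0.22) in PH30, from 0.14 to 0.40 (median 0.30) in PH70 and from 0.35 to 0.83 (median 0.55) in PH90 rats. Every PH70 and PH90 rat was above every sham rat, and in PH30 only rat 95, at 0.64, was. It rose by 0.44 (SE 0.12, adjusted p = 0.0065) after PH70 and by 0.73 (SE 0.12, adjusted p = 6.8e-06), or 1.66-fold, after PH90, and differed by 0.03 after PH30 (adjusted p = 0.92). The PH90 minus PH70 difference of 0.29 had an adjusted p of 0.07, and of 0.0031 without PH30 rat 95. A probe set listed for both H3f3b and H3f3l1 gave the opposite sign in PH90, with a difference from sham of -0.49 (adjusted p = 2.3e-07) and of 0.15 in PH70 (adjusted p = 0.1), so the direction for H3f3b rests on the probe set that names it alone.

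H2aj, a variant H2A, was between -0.50 and 0.01 (median -0.13) in sham and between 0.11 and 0.57 (median 0.18) in PH90 rats, without overlap. It rose by 0.41 after PH90 (SE 0.11, adjusted p = 0.0025) and differed by 0.27 and 0.28 after PH30 and PH70 (adjusted p = 0.14 and 0.064). In unoperated rats it ran from -0.72 to -0.13 (median -0.38), overlapping sham, and the difference between these 2 groups was not called. Against unoperated rats H2aj was higher by 0.50 after PH30, the only replacement variant called there, so its PH30 call depended on the reference group. H3f3c, annotated as another gene of the same H3 type as H3f3b, was between -0.17 and 0.13 (median 0.06) in sham and between -0.60 and -0.25 (median -0.52) in PH90 rats, and fell by 0.47 on the log2 scale (SE 0.09, adjusted p = 0.00013). The variant-like copy H3f3l1 fell too in PH90, with a difference from sham of -0.64 (adjusted p = 0.0012). H1f10, a linker variant, was not called after PH30, PH70 or PH90 (0.07, 0.25 and 0.00; adjusted p = 0.8, 0.14 and 0.99). Its PH70 difference was 0.33 without PH70 rat 139 (adjusted p = 0.033).

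The germline and further linker histones are made mainly in germ cells. Of these 6, 0 were called after PH30 or PH70 against sham by limma, none of them with an unadjusted p below 0.05, and 1 was called after PH90: H1f6, the testis linker, at -0.26 (adjusted p = 0.0049). Over all probe sets tested, 5.72%, 18.8% and 34.7% were called after PH30, PH70 and PH90. With 6 genes these counts are not set apart from those shares. Histones outside the member rule behaved unevenly. H2ax, a variant H2A that marks DNA breaks once phosphorylated and is made from both kinds of message, rose by 1.70, 2.89 and 1.22 after PH30, PH70 and PH90 (adjusted p = 0.015, 1.3e-05 and 0.021). Cenpa, the H3 of the centromere, rose by 0.90 after PH70 (adjusted p = 0.00038) and differed by 0.44 and 0.23 after PH30 and PH90 (adjusted p = 0.14 and 0.35). Macroh2a1 and Macroh2a2, large H2A variants of silent chromatin, lay between -0.17 and 0.05 in all 3 and were not called.

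S phase genes stayed above sham after PH90 in larger number than cluster histones, although the difference between the lists was not tested. A list of 22 replication genes, of which 20 were measured by 23 probe sets, had 9, 23 and 16 probe sets higher than sham after PH30, PH70 and PH90 and 0 lower, with medians of 0.74, 1.53 and 0.91. Against unoperated rats, whose S phase mean lay above that of sham rats, 5, 23 and 14 were higher and 0 lower, with medians of 0.51, 1.36 and 0.59. Against PH70, 12 of 23 were lower in PH90 (median -0.66), and against PH30 1 was higher and 0 lower (median 0.07), where 7 of 23 cluster histones were lower (median -0.50). Over all probe sets tested, 2.34%, 10.7% and 20.1% were called higher than sham after PH30, PH70 and PH90. Against unoperated rats 3.57%, 9.45% and 19.4% were higher. In PH90, 10.3% were lower than in PH70, and against PH30 18.5% were higher and 13.0% lower. The S phase counts depended on rats 95 and 139: without rat 95 they were 6 after PH30 and 20 after PH90, without rat 139 they were 18 and 21, the 5 against unoperated rats after PH30 became 3 without rat 95 and 11 without rat 139, and against PH30 the PH90 count was 6 higher without rat 95. The 2 probe sets of Rrm2, a subunit of ribonucleotide reductase, differed from sham by 4.60 and 4.75 after PH70 and by 1.30 and 1.72 after PH90 (adjusted p = 0.077 and 0.039). Mcm6, of the replicative helicase, rose by 1.44, 2.56 and 1.46, and Pcna, the sliding clamp, by 1.06, 2.12 and 1.13. Ccna2, the S phase cyclin, rose by 1.77 and 3.07 after PH30 and PH70 and differed by 0.97 after PH90 (adjusted p = 0.097).

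Rat by rat, PH90 rats with S phase means in the PH30 range had cluster means below those of the PH30 rats nearest to them. PH30 rat 95 had an S phase mean of 1.56 and a cluster mean of 1.06, within the PH70 range. PH70 rat 139 had means of -0.01 and 0.22, within the PH30 range. The S phase mean of the PH90 rats ran from -0.29 to 0.85, and that of the unoperated rats from -0.29 to -0.19, so PH90 rat 61, at -0.29, lay within the unoperated range. All 6 PH90 and all 6 unoperated rats were above every sham rat, sham running from -0.62 to -0.48. PH90 rats 39, 43, 87 and 111 had S phase means of 0.48, 0.85, 0.46 and 0.68 with cluster means of 0.02, 0.34, -0.13 and 0.16, while PH30 rats 99 and 130 had S phase means of 0.25 and 0.59 with cluster means of 0.49 and 0.56. PH90 rats 61 and 106 had S phase means of -0.29 and -0.06 and the lowest cluster means of all 30 rats, -0.35 and -0.49. Those cluster means include Hist1h4b, at -1.60 and -1.57 in rats 61 and 106, and Hist1h2bq, at -0.93 and -0.37. In sham rats these 2 probe sets lay between 0.03 and 0.42 and between 0.20 and 0.93. They thus pull the cluster means of rats 61 and 106 down against sham, and the ranking depends in part on them. Cluster means without these 2 probe sets are not given here. These are values of single rats and no test was made of the ratio.

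**Figure D4:**
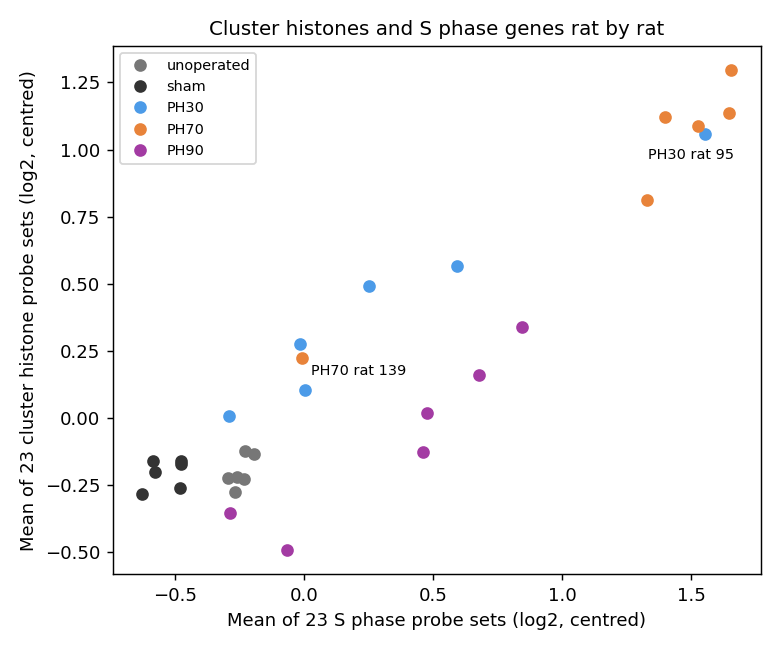
Mean of the 23 cluster histone probe sets (vertical axis, centred log2) against the mean of the 23 S phase probe sets (horizontal axis, centred log2), 1 point per rat, coloured by group. PH90 points lie below the PH30 and PH70 points at like S phase means, such as PH90 rat 111 (0.68, 0.16) beside PH30 rat 130 (0.59, 0.56).

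Genes that process, carry and deposit histones were read from a list of 40 by role, of which 36 were measured; the list also holds Cenpa, itself a histone. Of these, 4, 20 and 17 were higher than sham after PH30, PH70 and PH90, with 0, 2 and 4 lower and medians of 0.20, 0.49 and 0.32. Over all probe sets tested, 2.34%, 10.7% and 20.1% were called higher and 3.37%, 8.15% and 14.6% lower in the same comparisons. Between PH90 and PH70, 5 were higher and 13 lower, where 14.1% of all probe sets were higher and 10.3% lower, so the 5 were near the share over all probe sets. Slbp, the stem-loop binding protein, differed from sham by 0.05, 0.20 and -0.03 (adjusted p = 0.75, 0.051 and 0.83), and Npat, the activator of histone gene transcription, by -0.17, 0.08 and 0.15, none of them called. In the F test over the 5 groups both genes were called (adjusted p = 0.038 for Slbp and 0.017 for Npat). Both are named here after their values were seen.

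The largest F values in this list were those of Nap1l1, Ipo4, Nap1l4 and Rbbp7. Nap1l1, a chaperone of H2A and H2B, rose by 0.66 after PH70 and 1.42 after PH90 (adjusted p = 0.00055 and 6.6e-10), with PH90 above PH70 by 0.76 (adjusted p = 5.7e-05). Its relative Nap1l4 rose by 0.34, 0.53 and 0.66 after PH30, PH70 and PH90 (adjusted p = 0.0045, 4.4e-06 and 2e-09), and its PH90 and PH70 values differed by 0.13 (adjusted p = 0.16). Ipo4, the importin of H3 and H4, rose by 0.55 and 1.10 after PH70 and PH90 (adjusted p = 0.00023 and 5.7e-10), with PH90 above PH70 (adjusted p = 0.00012). Rbbp7, which binds H4, rose by 0.63 and 1.06 (adjusted p = 0.00067 and 9.9e-08), with PH90 above PH70 by 0.43 (adjusted p = 0.014). Cpsf3, the nuclease that cuts the 3' end of histone messages and of other messages, rose by 0.43 after PH90 (adjusted p = 1.9e-05) and differed by 0.06 after PH70 (adjusted p = 0.66).

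Nasp, Mcm2 and Ssrp1 were also among the 8 with the largest F. Nasp, which keeps a reserve of H3 and H4, rose by 0.82 after PH70 (adjusted p = 3.1e-05), differed by 0.31 after PH90 (adjusted p = 0.062), and was lower in PH90 than in PH70 by a difference of -0.51 (adjusted p = 0.0028). Mcm2, a helicase subunit that binds parental H3 and H4, rose by 0.81, 1.63 and 1.03 (adjusted p = 0.021, 5.1e-06 and 0.00021), with PH90 below PH70 by a difference of -0.59 (adjusted p = 0.039). Ssrp1, of the FACT complex, rose by 0.90 and 0.82 after PH70 and PH90 (adjusted p = 1.5e-05 and 7.3e-06), which differed by -0.08 (adjusted p = 0.76). Asf1b, which hands H3 and H4 to the assembly factors, and Hjurp, the chaperone of Cenpa, are named after their values were seen: they rose by 1.63 and 1.86 after PH70, and were lower in PH90 than in PH70 by differences of -1.24 each (adjusted p = 0.00082 and 0.0031). Hira, which deposits replacement H3, was likewise chosen afterwards and rose by 0.33 after PH90 (adjusted p = 0.0023). The 4 genes of the list that were lower than sham after PH90 are not named here. The lowest difference in that comparison was -0.51, so the named genes do not stand for the whole list.

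Markers of other cells were read in the same groups, where 34.7% of all probe sets were called against sham after PH90 and 18.8% after PH70. The marker lists are short, and their counts were not tested against those shares. After PH90 the macrophage list of 6 had 3 lower and 1 higher than sham (median -0.50), 1 of 2 sinusoidal endothelial markers was lower, and the neutrophil list of 4 had 3 higher (median 0.45). Of 5 stellate cell markers 2 were higher and 2 lower after PH90, with differences from -1.88 to 1.04, and 0 were called after PH70. Of 4 bile duct markers 1 was higher after PH90 and 0 were called after PH70. After PH70 the macrophage list had 2 lower and 1 higher, the neutrophil list 2 higher, and 1 of 2 sinusoidal endothelial markers was lower. All 3 red cell markers were lower than sham after PH70 and after PH90. Against unoperated rats only 1 of the 3 was called lower in each, and the other 2 differences were positive. Between sham and unoperated rats 1 red cell marker was called higher and 1 lower. Of 3 hepatocyte markers 0 were called after PH70 and 1 was lower after PH90 (median -0.07), and of 6 lymphocyte markers 0 were called after PH70 and 1 was lower after PH90. The part of these changes in the histone values was not tested.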

How the data were processed

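The authors deposited 1 table of log2 values for 30 arrays, made per the submitters' processing notes with RMA in Affymetrix Expression Console, whose versions are not stated there. RMA subtracts background, equalises arrays and summarises probes as log2 values. They run from -6.04 to 5.44, and each probe set has a median of 0 within 5e-07, so levels are lost and no filter on low values or signal over background was possible. Array medians lie between -0.009 and 0.022. Groups come from each rat's treatment label, and nothing beyond a rat number says whether other handling differed. The number of arrays limits precision.

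Of 29489 probe sets, 18511 with exactly 1 symbol were tested, 575 have several and 10403 none. limma 3.58.1 in R 4.3.3 fitted 1 mean per group on all 30 arrays (25 residual and 3.70 prior degrees of freedom), with eBayes, two-sided, and Benjamini-Hochberg adjustment within each of the 10 comparisons and for the F test. The steps were tested on simulated data. Every adjusted p is limma's. A count of rats above or below refers to single values.

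Members, classes and gene lists were chosen with earlier results of these data known. Named by rule were all replacement variants, the 8 cluster genes with the largest and the 3 with the smallest F, called members opposite to their class, the 8 histone supply genes with the largest F, and Rrm2, Mcm6, Pcna and Ccna2. The names H2az2l1 and H3f3l1 were not in the class lists. There were 8 alternatives: gene means, all probe sets, array weights, arrays centred, only the groups compared, and without rat 95, rat 139 or both.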

Additional observations from a re-analysis of the deposited data

Results flagged for a closer look

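Single rats lay far from the other 5 of their group in 5 of 95 group and value combinations examined by the gap of an extreme rat relative to the range of its group. Chance alone gives about 1 in 20. PH30 rat 95 was the highest PH30 rat for the mean of the replacement variants, at 0.412 with the others between -0.09 and 0.03, and for H3f3b, at 0.638 with the others between -0.46 and -0.17. PH70 rat 139 was the lowest PH70 rat for H2az1, at -0.135 with the others between 0.76 and 1.24, and for Hist1h2af, at 0.402 with the others between 1.32 and 1.69. PH90 rat 106 was the highest PH90 rat for H2aj, at 0.565 with the others between 0.11 and 0.20.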

How the results depend on the processing

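Under the 8 alternatives, 302 results for cluster and replacement genes, counts called and class medians together, stayed near the main result and 18 did not. A count stayed near if it was within 1.5 times the main count. All 160 class medians, which are among the 302, kept within the spread between rats, so all 18 that moved were counts. Many of these medians could not move. Gene means, all probe sets and only the groups compared leave the log2 differences of members unchanged. Leaving out a rat changes only comparisons with its group. The spread used as the limit includes rats 95 and 139, and without both the cluster median for PH70 against PH30 went from 0.72 to 0.98. For cluster genes, fitting only the groups compared gave 3 called between sham and unoperated (main 0), 6 between PH90 and unoperated (main 3) and 0 between PH70 and PH30 (main 3). Array weights gave 5 and 15 for the last pair of comparisons, and leaving out rats 95 and 139 together gave 7 and 17. Leaving out either rat alone gave 14 to 15 for PH70 against PH30. For replacement variants, PH70 against PH30 (main 0) gave 2 with array weights and without both rats, 1 to 2 without either, and 1 with arrays centred. PH30 against unoperated (main 1) gave 2 without both rats and 1 to 2 without either. Without both rats 4 were called in PH70 against unoperated (main 2) and 4 in PH90 against PH70 (main 2). The cause was not tested, and no other rat was left out. For single named genes, 525 values kept their side of the threshold, 15 became called, 4 lost the call and 0 reversed. No paired analysis was possible because no rat number occurs in more than 1 group.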
